A study of Mus musculus with 12 samples.

Results

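Paneth cells sit at the base of the small intestinal crypts, between the stem cells, and release granules of antimicrobial proteins into the crypt lumen. The granules hold lysozyme, the alpha-defensins (called cryptdins in mice) and other microbe-binding or microbe-killing proteins. In mice the protease Mmp7 (matrilysin) cuts the alpha-defensin precursors into their active form. Wnt signalling through beta-catenin and the TCF/LEF transcription factors is a known driver of Paneth cell maturation. The transcripts described here come from 9 genes chosen by symbol: Lyz1, Mmp7, the alpha-defensin genes Defa24, Defa21, Defa17 and Defa23, and Itln1, Ang4 and Mptx2. They were chosen with results of these same libraries known, so their fold changes describe these libraries and their adjusted p-values are not independent evidence. All 9 were found among the 26121 genes listed in both deposited count tables.

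The duodenum of C57BL/6N mice was sequenced as 12 RNA libraries, 3 in each of 4 groups. HFD PCN and HFD Vehicle mice received a high-fat diet and then an intraperitoneal injection once a day for 4 days. The HFD PCN injection was PCN at 50 mg/kg, a steroid that activates the rodent pregnane X receptor, a nuclear receptor that controls drug-metabolising enzymes. The HFD Vehicle injection was 30% DMSO in corn oil. HFD mice had the same diet and Chow mice had regular chow, and the labels give no injection for either group. Mice of all 4 groups entered the diet at 6 weeks of age and stayed on it for 18 weeks. The labels name no genetic alteration and do not say how many mice stand behind a library, so p-values measure the spread between these libraries.

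The libraries held 4676718 to 20684369 counts. Levels are counts per 1e+06 counts of a library (CPM), with TMM scaling factors over the 12 libraries, and libraries are named by group and the number in their labels. The duodenal transcription factor genes Gata4 (88.6 to 159 CPM) and Pdx1 (10.1 to 68.6 CPM) were present in all 12 libraries, and the ileal bile acid-binding protein gene Fabp6 stood at 0 to 0.406 CPM. The extraction protocol in the labels speaks of liver pieces, but the liver gene Alb stood at 0.106 to 1.15 CPM. HFD Vehicle 23 and HFD Vehicle 50 stood apart from the other libraries. Their summed level of 4 heat shock genes was 5846 and 4895 CPM, against 673 to 2289 CPM in the other 10. The share of mitochondrial ribosomal RNA was 33.6% in HFD Vehicle 23, against 8.69% to 19.2% elsewhere. Fold changes and counts that involve the vehicle group are therefore given with and without these 2 libraries, which leaves HFD Vehicle 55 alone in that group.

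On GRCm38, the 4 alpha-defensin genes lie within 710 kb of chromosome 8, from Defa21 at chr8:21025545-21026516 through Defa23 at chr8:21055047-21056016 and Defa17 at chr8:21655780-21656735 to Defa24 at chr8:21734494-21735471. Lyz1 lies at chr10:117287797-117292868, Ang4 at chr14:51763878-51773590 and Mmp7 at chr9:7692090-7699585. Itln1 at chr1:171518122-171535294 and Mptx2 at chr1:173274382-173277777 share a chromosome.

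Promoter sequences from RefSeq (GRCm38.p6) were at hand for 7 of the 9 genes, not for Defa17 and Defa24. The TCF/LEF core ATCAAAG, searched on both strands (its reverse complement is CTTTGAT) from 250 bases before to 50 bases after each gene's start, occurred in 3.73% of 32851 promoters. It occurred 2 or more times in 0.1% of them. Defa21 and Defa23 each held it 2 times on the sense strand, and their 250 upstream bases are shown because this is the feature that 3 of the 7 promoters share. Capitals mark ATCAAAG, and both sequences are on the plus strand, at chr8:21025295-21025544 for Defa21 and chr8:21054790-21055039 for Defa23.
Defa21: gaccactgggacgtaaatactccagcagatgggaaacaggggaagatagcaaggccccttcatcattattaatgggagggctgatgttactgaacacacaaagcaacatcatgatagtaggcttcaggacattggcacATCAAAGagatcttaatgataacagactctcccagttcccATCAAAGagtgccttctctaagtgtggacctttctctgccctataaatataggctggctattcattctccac
Defa23: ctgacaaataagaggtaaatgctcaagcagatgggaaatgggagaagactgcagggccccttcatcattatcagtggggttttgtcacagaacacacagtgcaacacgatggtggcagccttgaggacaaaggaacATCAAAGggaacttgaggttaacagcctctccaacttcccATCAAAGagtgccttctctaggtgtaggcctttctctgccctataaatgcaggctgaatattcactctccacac

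The matches began at -112 and -72 in Defa21 and at -114 and -74 in Defa23, counted from the RefSeq start of transcription. The 2 upstream sequences were 80.5% identical over 246 aligned bases, so their matches are not independent of each other. Among 33 genes with 2 or more matches in the whole table, 9 were alpha-defensin genes by symbol, out of 16 such genes in the table. Mmp7 held 1 match, which began at base 5, with the first transcribed base counted as base 1. From a second RefSeq start of Mmp7 the same match lay at -247. The surrounding 30 bases at chr9:7692083-7692112 on the plus strand are shown with the match in capitals.
Mmp7: tgtcaggaaacATCAAAGtagctctgagaa

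Lyz1, Ang4, Itln1 and Mptx2 had no such letters in this window. The TATA box TATAAA, searched on the sense strand, occurred in 8.32% of all promoters. It stood at -31 in Defa21, at -33 in Defa23 and at -123 and -26 in Mmp7. The second RefSeq start of Mmp7 had no TATA box match. The heat shock element, as 3 alternating GAA and TTC units each set apart by 2 free bases, was searched on both strands. It occurred in 0.603% of all promoters and matched none of the 7. These matches are descriptions of sequence and say nothing on factor binding in these mice.

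**Figure D1:**
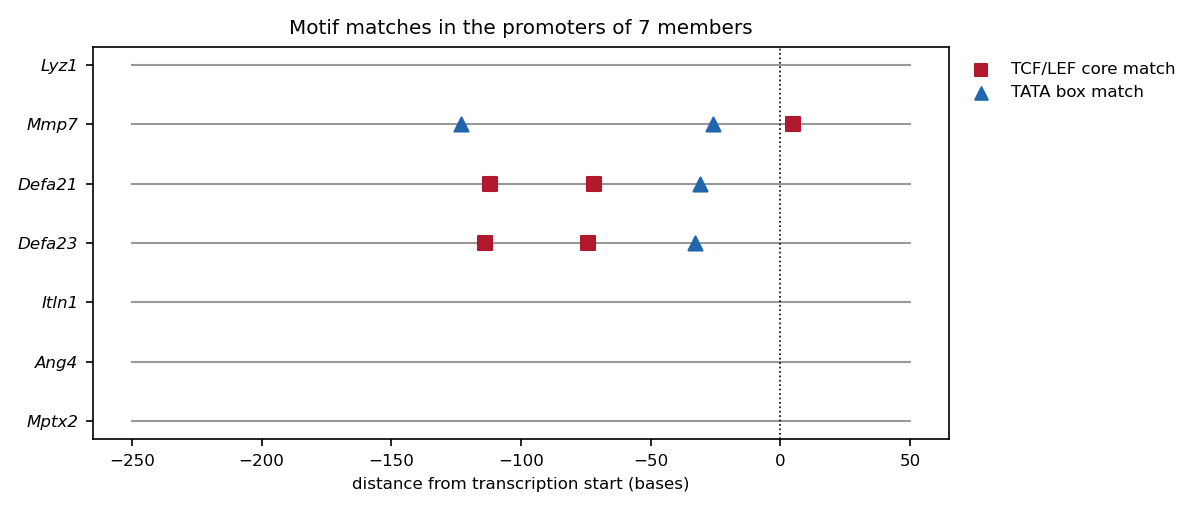
Matches to the TCF/LEF core (squares) and to the TATA box (triangles) in the RefSeq promoters of 7 genes, plotted by distance in bases from the start of transcription (dotted line). Defa21 and Defa23 carry the same arrangement of 2 core matches and 1 TATA box. Mmp7, drawn from its first RefSeq start only, carries 1 core match and 2 TATA boxes, and the other 4 promoters carry neither.

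Alpha-defensin transcripts are close copies of one another, which limits how far single genes can be told apart. The Defa17 and Defa23 transcripts (GENCODE M21) were 97.7% identical, and Defa24 was 95.5% identical to Defa17 and 95.6% identical to Defa23. Defa21 was the more distant member, at 83.6% to 85.4% identity with the other three. Of the 50-base windows of a transcript, 94.8% in Defa23, 92% in Defa17, 72.9% in Defa21 and 28.1% in Defa24 also occurred in a transcript of another gene. With 100-base windows the shares were 89.1% in Defa23, 90.6% in Defa17, 40.4% in Defa21 and 0% in Defa24. The values of Defa17, Defa23 and Defa21 are therefore uncertain as values of single genes. Mptx2 shared 18% of its 50-base windows with Mptx1, and Lyz1 shared 16.1% with Lyz2, the lysozyme gene of macrophages. Itln1, Ang4 and Mmp7 shared 1.01% to 7.36%.

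Per kilobase of exon, the median levels over 12 libraries differed widely among the 9 genes. Lyz1 had 283 CPM per kb and Defa24 had 261 CPM per kb, followed by Itln1 with 80.0 CPM per kb. Ang4 and Mmp7 had medians of 11.2 and 8.08 CPM per kb. At the low end, Defa21, Defa17, Mptx2 and Defa23 had medians of 1.90, 1.62, 1.11 and 0.523 CPM per kb. The ranges over libraries of neighbours in this order overlapped, for example 135 to 965 CPM per kb for Lyz1 and 88.7 to 1650 CPM per kb for Defa24. The 9 genes together took 0.0240% of the counts in HFD 30 and 0.207% in HFD Vehicle 23, the lowest and highest of the 12 libraries.

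**Figure D2:**
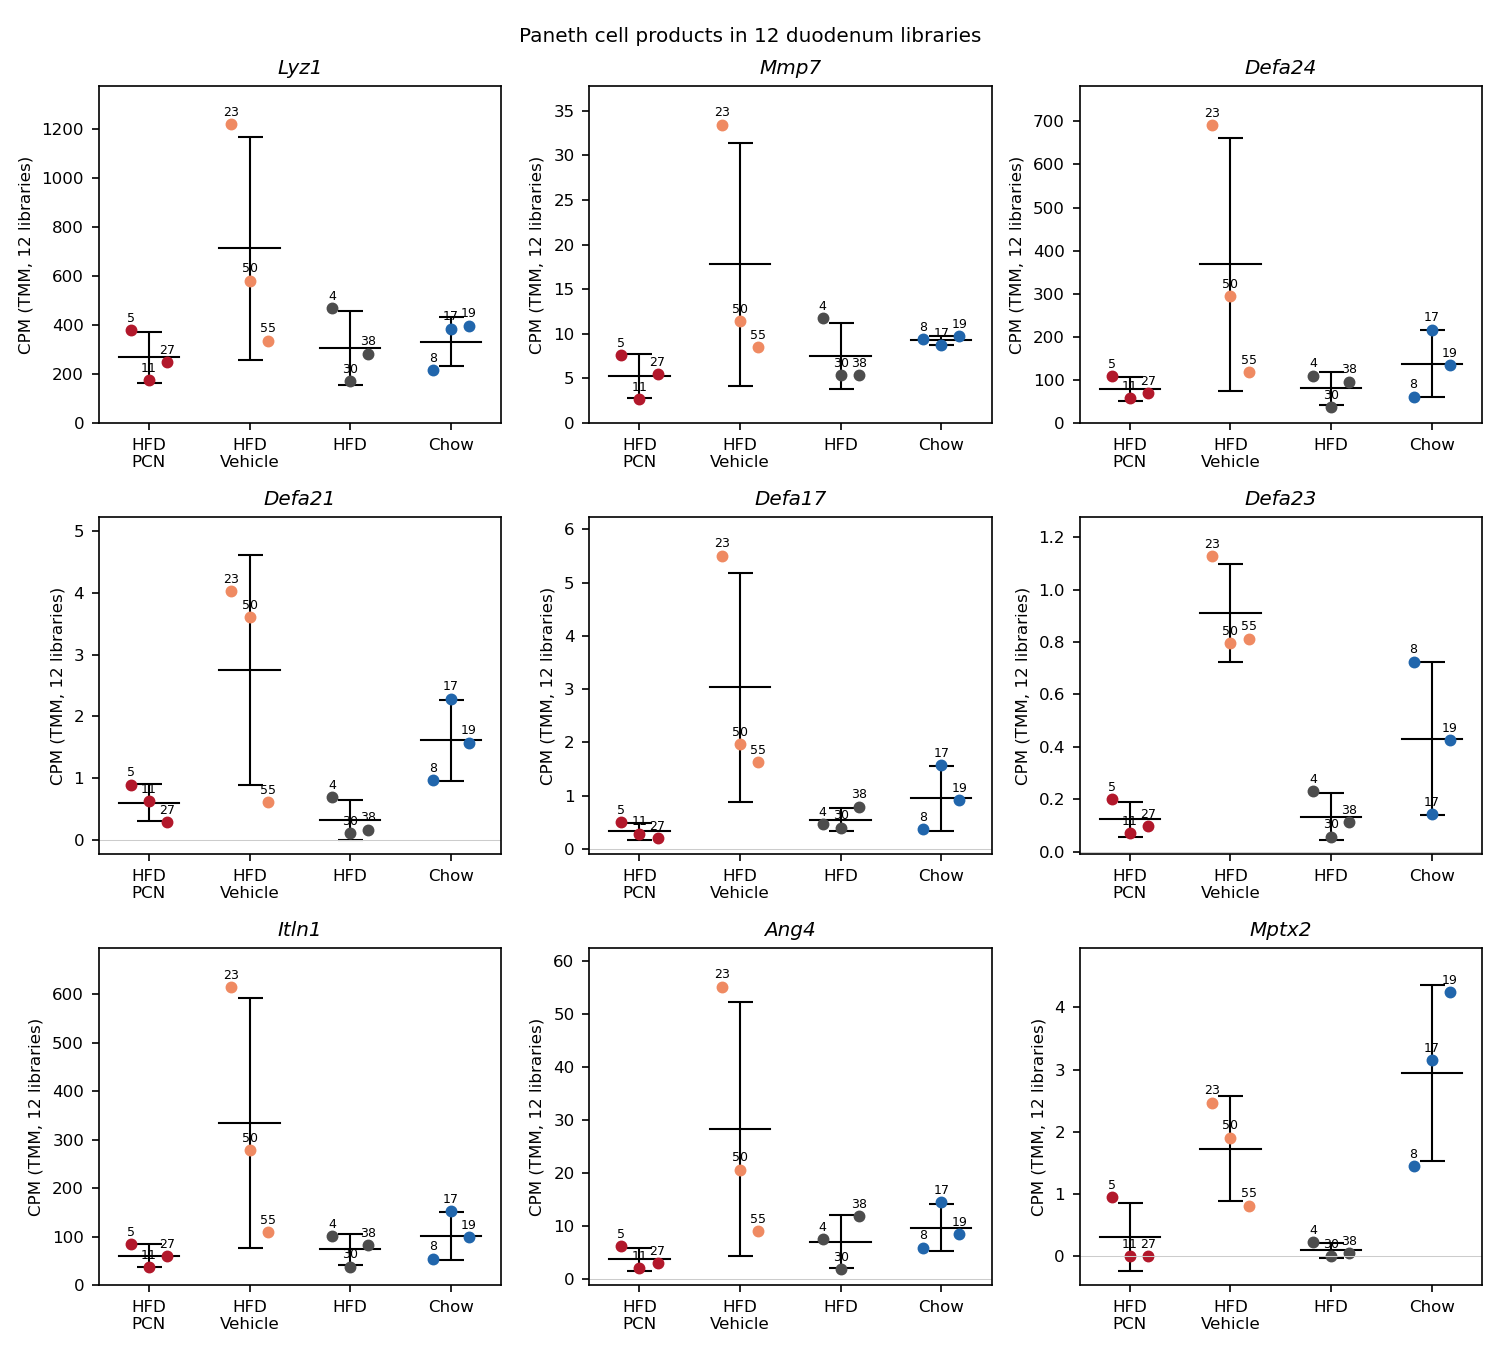
Level of each of the 9 genes in CPM (vertical axis, own linear scale per panel) in 12 libraries, with HFD PCN, HFD Vehicle, HFD and Chow from left to right; points carry the library's number, and bars give the mean and SD of 3 libraries. HFD Vehicle 23 is the highest library in 8 panels, while in the Mptx2 panel Chow 19 is highest and 3 libraries of the other groups stand at 0.

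PCN given to mice on the high-fat diet was compared first with vehicle given on the same diet. All 9 genes had lower fitted levels in HFD PCN than in HFD Vehicle, by log2 fold changes of -1.42 to -3.15. Defa17, Defa21, Defa23 and Mptx2 were under the filter on low counts in HFD PCN against HFD and passed it here through the vehicle group, where they were higher, so the filter partly fixes their direction. None of the 9 passed edgeR's quasi-likelihood test at an adjusted p under 0.05. For 6 of them the HFD PCN and HFD Vehicle libraries did not overlap. Less RNA per cell and fewer Paneth cells cannot be told apart in whole-tissue RNA, here or in the comparisons that follow.

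Lyz1, which encodes the lysozyme that cuts bacterial cell walls and is the standard Paneth cell marker, had 380, 175 and 249 CPM in HFD PCN 5, 11 and 27, against 1219, 580 and 336 CPM in HFD Vehicle 23, 50 and 55. HFD PCN 5 stood above HFD Vehicle 55, so the groups overlapped, and HFD Vehicle 23 stood far above every other library. The means were 268 ± 104 CPM in HFD PCN and 712 ± 456 CPM in HFD Vehicle (SD, n = 3 each). The log2 fold change was -1.42 (SE 0.47, edgeR adjusted p 0.240).

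Defa24, the most abundant of the 4 alpha-defensin transcripts, had 109, 57.5 and 68.9 CPM in HFD PCN 5, 11 and 27, against 691, 295 and 118 CPM in HFD Vehicle 23, 50 and 55. The groups did not overlap, but HFD PCN 5 and HFD Vehicle 55 lay close together. Its log2 fold change was -2.24 (SE 0.58, edgeR adjusted p 0.231). Defa17 had 0.498, 0.282 and 0.195 CPM in the HFD PCN libraries, against 5.50, 1.96 and 1.63 CPM in the HFD Vehicle libraries, from 16 and 123 reads over the groups. The lowest vehicle library, HFD Vehicle 55, stood above the highest PCN library, HFD PCN 5. They held 8 and 10 reads, so counting error bears on this gap. The log2 fold change of Defa17 was -3.15 (SE 0.61, edgeR adjusted p 0.200). Defa23 rested on 6 reads in HFD PCN and 35 in HFD Vehicle, and its log2 fold change was -2.73 with SE 0.59 (edgeR adjusted p 0.229). Defa21 had 0.897, 0.634 and 0.293 CPM in HFD PCN, against 4.02, 3.60 and 0.610 CPM in HFD Vehicle, and its groups overlapped through HFD Vehicle 55, where it had 3 reads. Its log2 fold change was -2.19 (SE 0.63).

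Itln1, which encodes intelectin, a lectin that binds microbial sugars, had 84.3, 37.2 and 59.0 CPM in HFD PCN 5, 11 and 27, against 615, 278 and 109 CPM in HFD Vehicle 23, 50 and 55. The groups did not overlap, and the log2 fold change was -2.49 (SE 0.59, edgeR adjusted p 0.231). Ang4, a ribonuclease of the angiogenin family with microbe-killing activity, had 6.08, 1.90 and 2.93 CPM in HFD PCN and 55.1, 20.6 and 8.94 CPM in HFD Vehicle. Its groups did not overlap either, with a log2 fold change of -2.95 (SE 0.70). Mmp7, the processing protease, had 7.62, 2.68 and 5.46 CPM in HFD PCN and 33.4, 11.4 and 8.53 CPM in HFD Vehicle, a narrow gap between the groups and a log2 fold change of -1.78 (SE 0.55). Mptx2, a mucosal pentraxin expressed by Paneth cells of the mouse, had 0.947, 0 and 0 CPM in HFD PCN and 2.47, 1.91 and 0.813 CPM in HFD Vehicle. Its HFD PCN reads, 19 in number, were all in HFD PCN 5, so its log2 fold change of -2.26 (SE 0.96) has the largest error of the 9, and without HFD PCN 5 it was -7.51. A count of 0 allows up to 0.211 CPM in HFD PCN 11 and 0.293 CPM in HFD PCN 27, from 3 reads and counting error alone.

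Of the 16110 genes tested in this comparison, 10 (0.0621%) passed the threshold, none of them among the 9. The unadjusted p was under 0.05 for 2887 genes, the 9 among them, with p from 0.000490 for Defa17 to 0.0425 for Mptx2. The share of all genes whose HFD PCN libraries lay below every HFD Vehicle library was 9.48%, beside 6 of the 9 genes here (Defa17, Defa23, Defa24, Ang4, Itln1 and Mmp7). Of these 6, Defa17 and Defa23 passed the filter through the vehicle group, where they were higher. HFD Vehicle 55 alone lay above the 3 HFD PCN libraries for the same 6 genes, which the count of 6 already implies. The share was 26.9% of 16366 genes. Defa23 was not among the genes fitted with HFD Vehicle 55 as the only vehicle library. Over the 5 genes above the filter in all 4 comparisons (Lyz1, Mmp7, Defa24, Itln1 and Ang4), the median log2 fold change was -2.24, against -0.01 over all genes tested. DESeq2 on the same counts passed 322 of the 16110 genes, among them 5 of the 9 (Defa17, Defa24, Ang4, Itln1 and Mmp7). It gave Defa23 no adjusted p. In the authors' deposited table, 4 had an adjusted p under 0.05: Ang4 with a log2 fold change of -2.06 (adjusted p 0.000681), Itln1 with -1.87 (0.001357), Defa17 with -2 (0.002385) and Defa24 with -1.69 (0.006306). These 4 fold changes were smaller in size than the fitted ones, and the share of all genes under that threshold was not taken.

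How large these differences were depended on which vehicle libraries entered the fit. Without HFD Vehicle 55, 8 of the 9 genes passed edgeR's threshold, Mptx2 being the exception, beside 3697 of all 16789 genes tested. The vehicle group then held HFD Vehicle 23 and 50 alone. Without HFD Vehicle 23 and 50, the 2 libraries with high heat shock transcripts, the vehicle arm held 1 library, HFD Vehicle 55, which was assumed to vary like the PCN libraries. This fit is given for its values alone, and 8 of the 9 genes could be fitted. Their log2 fold changes were then -0.32 for Lyz1, -0.58 for Defa24, -0.68 for Mmp7, -0.85 for Itln1, -1.08 for Mptx2, -1.26 for Ang4 and -2.20 for Defa17, while Defa21 stood at 0.07. The part that the heat shock state of these 2 libraries plays in the levels of the 9 genes was not tested.

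**Figure D3:**
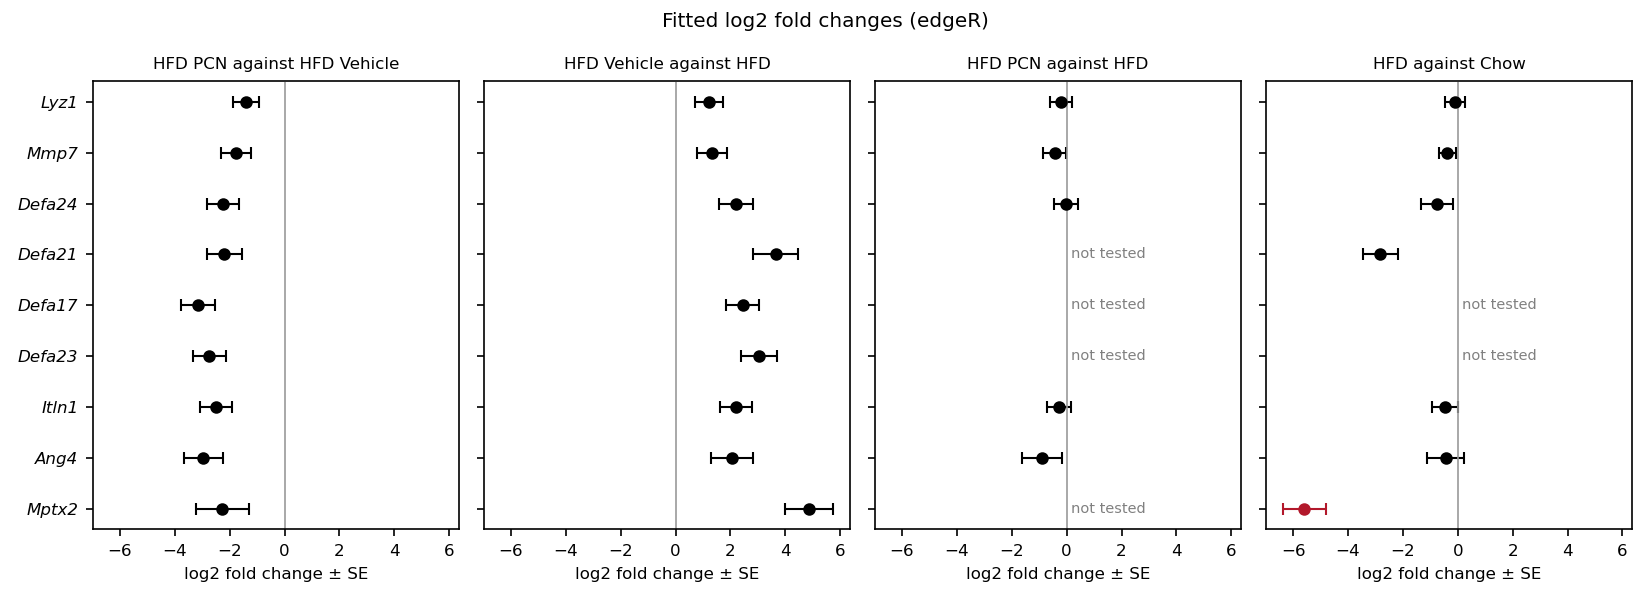
Fitted log2 fold change (horizontal axis, edgeR) with its standard error for each of the 9 genes in 4 comparisons, the first-named group over the second; red marks an adjusted p under 0.05 and grey text a gene under the filter on low counts. The 9 values against vehicle are negative (-1.42 to -3.15), those of vehicle over untreated HFD are positive (1.22 to 4.87), and those of PCN over untreated HFD lie between -0.90 and -0.04.

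The vehicle injection was next set against the untreated high-fat diet. All 9 genes had higher fitted levels in HFD Vehicle than in HFD, by log2 fold changes of 1.22 for Lyz1 to 4.87 for Mptx2. Defa17, Defa21, Defa23 and Mptx2 again passed the filter through the vehicle group. No gene of the 16255 tested passed edgeR's threshold (0.00%), 953 had an unadjusted p under 0.05, and DESeq2 passed 29. The adjusted p was 0.803 for each of the 9, and DESeq2 passed 4 of them (Defa21, Defa24, Itln1 and Mptx2). Without HFD Vehicle 55, edgeR passed the same 4, with adjusted p of 0.0182 for Defa21, 0.0212 for Mptx2, 0.0338 for Itln1 and 0.0440 for Defa24. In that fit 260 of 16844 genes passed.

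Defa24 had 691, 295 and 118 CPM in HFD Vehicle 23, 50 and 55, against 110, 37.2 and 95.8 CPM in HFD 4, 30 and 38, a log2 fold change of 2.21 (SE 0.63). The groups did not overlap, yet HFD Vehicle 55 exceeded HFD 4 by little. Itln1 showed the same order of libraries, with 109 CPM in HFD Vehicle 55 against 101 CPM in HFD 4, the highest untreated library, and a log2 fold change of 2.20 (SE 0.60). Mptx2 had 35, 36 and 4 reads in HFD Vehicle 23, 50 and 55, against 1, 0 and 1 reads in HFD 4, 30 and 38. This is a ratio of 39.2 for HFD Vehicle over HFD at equal library size (95% counting interval 10.5 to 329.6), and the log2 fold change was 4.87 (SE 0.88). Defa17 (log2 fold change 2.44, SE 0.61) and Defa23 (3.03, SE 0.66) also had no overlap between the groups. Defa21 (3.64, SE 0.83), Ang4 (2.06, SE 0.75), Mmp7 (1.33, SE 0.55) and Lyz1 (1.22, SE 0.52) overlapped.

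In all, 5 of the 9 genes had each HFD Vehicle library above each HFD library, beside 4.65% of all genes tested. Of these 5, Defa17, Defa23 and Mptx2 passed the filter through the vehicle group, where they were higher. Only Defa24 and Itln1 were above the filter in all 4 comparisons. HFD Vehicle 55 alone lay above the 3 HFD libraries for the same 5, which the count of 5 already implies. The share was 27.2% of the 16107 genes above the filter without HFD Vehicle 23 and 50, Defa23 and Mptx2 not among them. The 5 genes above the filter in all 4 comparisons had a median log2 fold change of 2.06, against 0.01 over all genes. Without HFD Vehicle 23 and 50, the single library HFD Vehicle 55 was set against the 3 HFD libraries, 6 genes could be fitted and their log2 fold changes were 0.11 for Lyz1, 0.24 for Mmp7, 0.36 for Ang4, 0.53 for Defa24, 0.56 for Itln1 and 1.48 for Defa17. The HFD Vehicle libraries enter both this comparison and the preceding one, so the 2 sets of fold changes are not independent of each other.

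PCN was therefore also set against the untreated high-fat diet, which leaves the vehicle libraries out but adds the injection itself to the difference. Of the 9 genes, 5 passed the filter on low counts, their log2 fold changes were between -0.90 and -0.04, and none passed the test, beside 52 (0.325%) of 15982 genes. Lyz1 had 380, 175 and 249 CPM in HFD PCN 5, 11 and 27, against 469, 170 and 283 CPM in HFD 4, 30 and 38, and its log2 fold change was -0.20 (SE 0.40). Defa24 had 109, 57.5 and 68.9 CPM in HFD PCN, against 110, 37.2 and 95.8 CPM in HFD, a log2 fold change of -0.04 (SE 0.44). The 2 groups covered nearly the same range for both genes.

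Itln1 (log2 fold change -0.29, SE 0.43) and Mmp7 (-0.43, SE 0.42) also lay within the spread of the libraries. Ang4 had the largest difference of the 5, with 6.08, 1.90 and 2.93 CPM in HFD PCN and 7.37, 1.76 and 11.7 CPM in HFD, a log2 fold change of -0.90 (SE 0.73). No member was lower in each HFD PCN library than in each HFD library, which held for 11.9% of all genes. The 4 genes under the filter were low in both groups. Defa17 had 16 reads in HFD PCN and 23 in HFD, Defa21 had 30 and 8, Defa23 had 6 and 4, and Mptx2 had 19 and 2. At equal library size the Mptx2 reads were 8.47 times higher in HFD PCN than in HFD (95% counting interval 2.04 to 75.0), but the 19 reads came from HFD PCN 5 alone. With all 12 libraries in 1 fit, which keeps the 9 genes, 3 had positive and 6 negative values.

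The high-fat diet without injection was compared with chow to ask what the diet alone did. Mptx2 fell in HFD, to 2 reads in 3 libraries against 104 in Chow, and was the 1 member that passed the test. The other 6 genes above the filter had negative fold changes that did not pass. Mptx2 and Defa21 passed the filter on low counts through the Chow group, where they were higher, so the filter partly fixes their direction. Among 15278 genes tested, 10 (0.0655%) passed and 1581 had an unadjusted p under 0.05.

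Mptx2 had 0.230, 0 and 0.0563 CPM in HFD 4, 30 and 38, against 1.45, 3.15 and 4.25 CPM in Chow 8, 17 and 19. Each Chow library stood well above each HFD library. The mean was 0.0956 ± 0.120 CPM in HFD and 2.95 ± 1.41 CPM in Chow (SD, n = 3 each), and the log2 fold change was -5.59 (SE 0.78, edgeR adjusted p 0.0403). At equal library size the pooled reads were 65.0 times higher in Chow than in HFD, with a 95% counting interval of 17.6 to 544, so the size of the drop is poorly fixed. The authors' deposited table gives -1.59 for this log2 fold change, with an adjusted p of 1.59e-05. DESeq2 on the same counts gave -5.75 here, so the deposited fold change is not on a like scale, and the reason was not tested. Fitted log2 fold changes ranged from -6.33 to -4.84 over the alternatives. The call was lost with limma-voom (adjusted p 0.120), with all 12 libraries in 1 fit (0.330), without HFD 4 (0.0626), without HFD 30 (0.135), without Chow 17 (0.0949) and without Chow 19 (0.174). Over the alternatives the adjusted p ran from 4.33e-12 to 0.330.

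Mptx1, the pentraxin gene that shares sequence with Mptx2, had 0.461, 0.227 and 0.732 CPM in HFD 4, 30 and 38, against 0.604, 0.572 and 0.0607 CPM in Chow 8, 17 and 19. The 2 groups overlapped, and Mptx1 was lowest in Chow 19, where Mptx2 was highest. Its values in HFD 4 and Chow 19 lay under the level of 3 reads there (0.691 and 0.182 CPM), so this order rests on very few reads.

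Defa21 had 0.691, 0.114 and 0.169 CPM in HFD 4, 30 and 38, against 0.967, 2.29 and 1.58 CPM in Chow 8, 17 and 19. The groups did not overlap, with 8 reads in HFD and 50 in Chow, and the log2 fold change was -2.82 (SE 0.65, edgeR adjusted p 0.198). It passed where the filter on low counts was dropped (adjusted p 0.00344). Of the 7 members tested, Mptx2 and Defa21 were the 2 with each HFD library below each Chow library, beside 8.16% of all genes. Both passed the filter through the Chow group.

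Lyz1, Mmp7, Ang4, Itln1 and Defa24 did not pass the test between the diets, which does not show that their levels were equal. Lyz1 had 469, 170 and 283 CPM in HFD 4, 30 and 38, against 215, 385 and 396 CPM in Chow 8, 17 and 19, with a log2 fold change of -0.10 (SE 0.37). The 2 groups overlapped almost entirely. Mmp7 (log2 fold change -0.39, SE 0.31), Ang4 (-0.45, SE 0.67), Itln1 (-0.46, SE 0.47) and Defa24 (-0.76, SE 0.58) had groups that overlapped too. Mmp7 was the steadiest gene within Chow, at 8.73 to 9.71 CPM, against 5.34 to 11.7 CPM in HFD. Defa17 had 23 reads in HFD and 29 in Chow and Defa23 had 4 and 14, both under the filter. Mptx2 and Defa21 passed the filter here but not in HFD PCN against HFD. The median log2 fold change was -0.45 over the 5 genes above the filter in all 4 comparisons and 0.00 over all genes, and 49.5% of all genes had a negative value.

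Each transcript was also set against Lyz1 within its own library, which removes differences in depth and scaling. Reads per 1000 Lyz1 reads are a composition of the Paneth cell transcripts measured here, given as a description with no test.

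Itln1 had 222, 212 and 237 reads per 1000 Lyz1 reads in HFD PCN 5, 11 and 27, against 504, 480 and 325 in HFD Vehicle 23, 50 and 55. The HFD PCN values were tightly spaced and lay below each vehicle value. In HFD 4, 30 and 38 the Itln1 values were 215, 223 and 291, and in Chow 8, 17 and 19 they were 253, 397 and 248. HFD PCN and HFD thus overlapped in this measure. Ang4 had 10.9 to 16.01 reads per 1000 Lyz1 reads in the 3 HFD PCN libraries, against 45.2, 35.4 and 26.6 in HFD Vehicle. Its values were 15.7, 10.4 and 41.5 in HFD and 26.9, 37.6 and 21.3 in Chow, so HFD 38 stood apart from the other HFD libraries and matched the vehicle range.

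Defa24 ran at 218 to 567 reads per 1000 Lyz1 reads over the 12 libraries, and its HFD PCN values (288, 328 and 277) lay below its HFD Vehicle values (567, 508 and 351). Mmp7 ran at 15.3 to 43.8, with HFD PCN at 15.3 to 21.95 and HFD Vehicle at 19.6 to 27.4, which overlapped. Relative to Lyz1, each HFD PCN library thus held fewer Itln1, Ang4 and Defa24 reads than each HFD Vehicle library, HFD Vehicle 55 included. The Mmp7 ranges overlapped. Defa17 (0.784 to 1.61 against 3.38 to 4.84) and Defa23 (0.392 to 0.525 against 0.926 to 2.42), on few reads, did not overlap. These 2 genes had 8 and 4 reads in HFD Vehicle 55 and passed the filter on low counts through the vehicle group. Lyz1 fell least of the 9 between these groups, so a ratio to it is lower in HFD PCN for genes that fell more. The same measure was not taken over all genes.

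Mptx2 followed another order. It had 2.49, 0 and 0 reads per 1000 Lyz1 reads in HFD PCN 5, 11 and 27, 2.02, 3.29 and 2.42 in HFD Vehicle 23, 50 and 55, and 0.491, 0 and 0.199 in HFD 4, 30 and 38. In Chow 8, 17 and 19 it had 6.73, 8.18 and 10.7. In this ratio the 9 libraries on the high-fat diet lay below the 3 Chow libraries, with or without injection. In CPM they did not, since Mptx2 had 2.47 and 1.91 CPM in HFD Vehicle 23 and 50, above 1.45 CPM in Chow 8. Lyz1, the divisor, had 1219 and 580 CPM in HFD Vehicle 23 and 50, against 215 to 396 CPM in Chow. Defa21 had 1.47, 0.668 and 0.598 in HFD against 4.49, 5.95 and 3.98 in Chow, while in HFD Vehicle 23, 50 and 55 it had 3.30, 6.21 and 1.81, of which the value of HFD Vehicle 50 reached the Chow range.

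**Figure D4:**
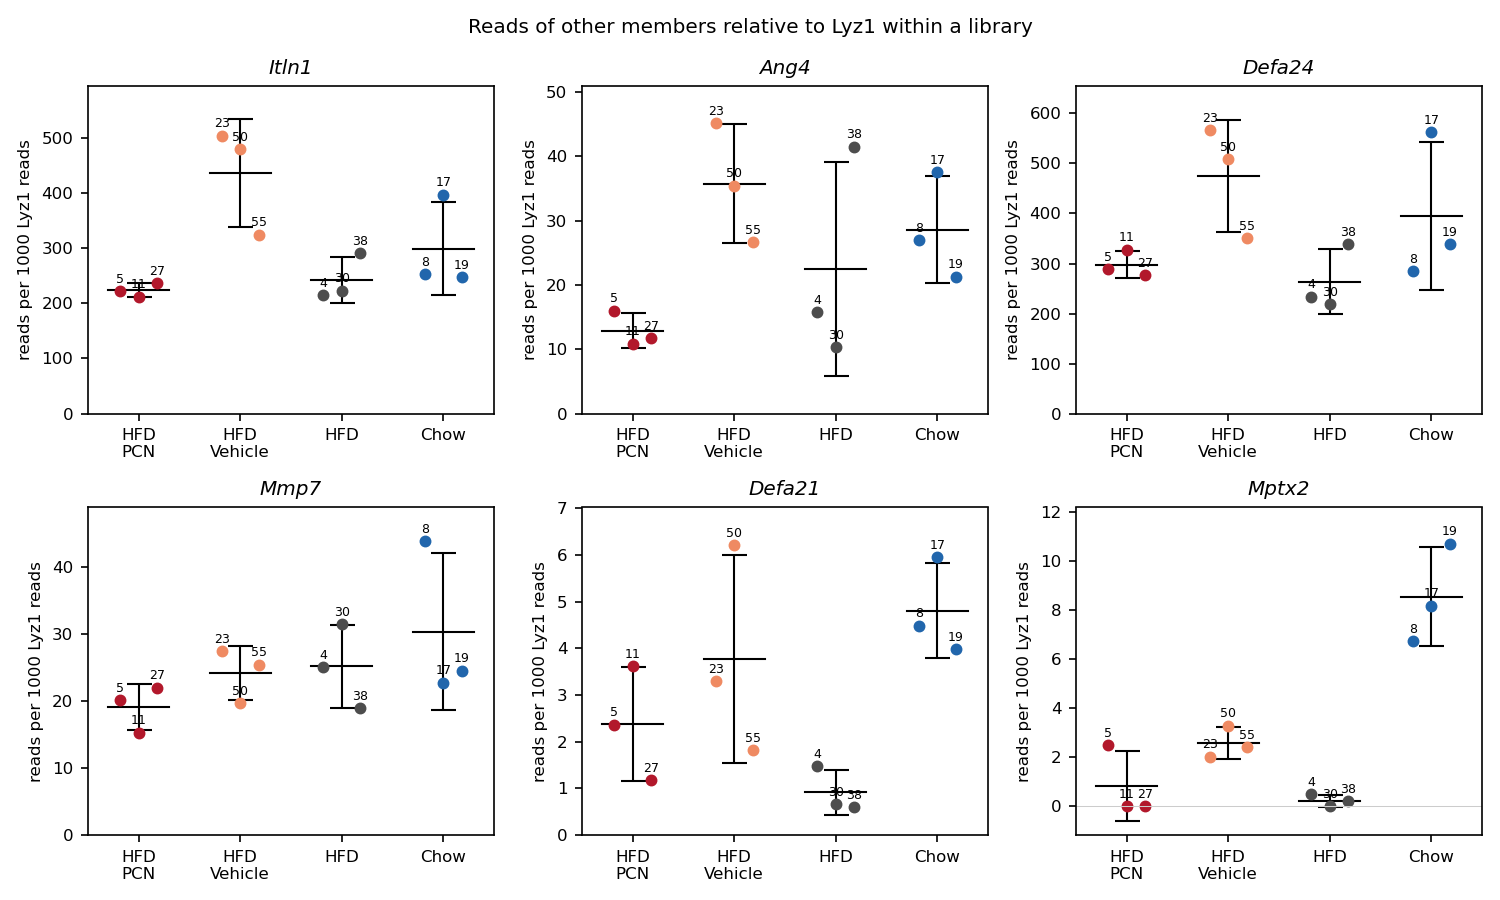
Reads of 6 genes per 1000 Lyz1 reads of the same library (vertical axis, own linear scale per panel), with HFD PCN, HFD Vehicle, HFD and Chow from left to right, library numbers at the points and the mean and SD of 3 libraries as bars. Itln1, Ang4 and Defa24 are lower in each HFD PCN library than in each HFD Vehicle library. Mptx2 is lower in the 9 high-fat diet libraries (0 to 3.29) than in each Chow library (6.73 to 10.7). In CPM, Mptx2 in HFD Vehicle 23 and 50 stood above Chow 8. The same ratios were not taken over all genes.

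The levels of other cell types give the setting of these values. Pancreatic acinar markers, which would enter with attached pancreas, summed to 4.93 to 27.4 CPM in HFD PCN, 15.8 to 105 CPM in HFD Vehicle, 8.17 to 30.1 CPM in HFD and 56.4 to 155 CPM in Chow, over 18 genes, of which up to 8 were at 0 in a library. Their fitted values were negative for 13 of 13 genes in HFD PCN against HFD Vehicle, positive for 14 of 14 in HFD Vehicle against HFD and negative for 13 of 13 in HFD against Chow, with none called. They thus differed in the same directions as the Paneth transcripts, and their part in the result was not tested. Without HFD Vehicle 23 and 50, 8 of 12 were positive in HFD PCN against HFD Vehicle and 5 of 11 in HFD Vehicle against HFD. Enterocyte markers summed to 12625 CPM in HFD Vehicle 23 and 20734 to 40253 CPM in the other 11 libraries, over 12 genes. They had positive values for 12 of 12 genes in HFD PCN against HFD Vehicle (median log2 fold change 0.54) and negative ones for 11 of 12 in HFD Vehicle against HFD (median -0.23), opposite in sign to the Paneth transcripts and with none called. Without HFD Vehicle 23 and 50, 8 of 12 were positive in both comparisons, and the part of the enterocyte markers in the result was not tested. Goblet cell markers, 8 genes led by mucus products, summed to 8500 to 13085 CPM. Stem cell markers, 9 genes of the crypt base, summed to 483 to 649 CPM in HFD PCN, 360 to 630 CPM in HFD Vehicle, 282 to 491 CPM in HFD and 354 to 573 CPM in Chow. The ranges of HFD PCN and HFD Vehicle overlapped for this list.

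**Figure D5:**
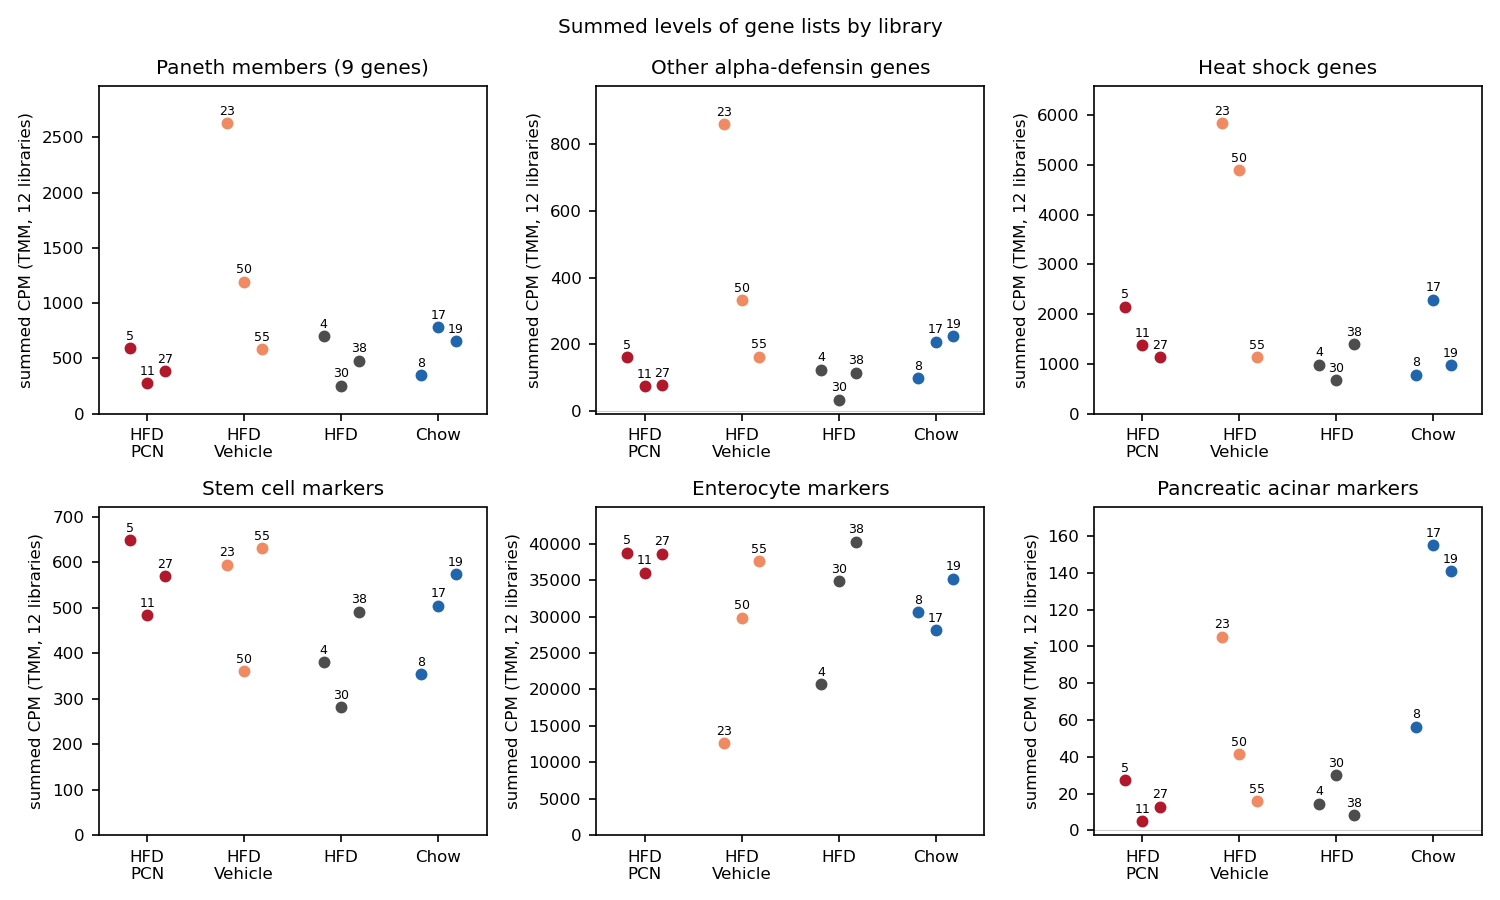
Summed level in CPM (vertical axis, own linear scale per panel) of 6 gene lists in 12 libraries, with HFD PCN, HFD Vehicle, HFD and Chow from left to right and library numbers at the points. HFD Vehicle 23 and 50 are the highest libraries for the 9 Paneth genes, the other alpha-defensin genes and the heat shock genes, while stem cell markers show no such pair and enterocyte markers are lowest in HFD Vehicle 23.

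Other alpha-defensin genes, a list of 27 symbols set apart from a wider list of Paneth cell secretory genes after the data were seen, had the following values. Their summed level was 861, 333 and 164 CPM in HFD Vehicle 23, 50 and 55 and 34.2 to 226 CPM in the other 9 libraries. Of the 7 genes tested in HFD PCN against HFD Vehicle, 7 had negative values and none passed, with a median log2 fold change of -2.36. Defa29 had the largest of these, at -3.07 (SE 0.60, edgeR adjusted p 0.202). In HFD Vehicle against HFD 7 of 7 were positive (median 2.05), in HFD PCN against HFD 5 of 6 were positive (median 0.16), and in HFD against Chow 6 of 6 were negative (median -1.25), with none called in any of them. Without HFD Vehicle 23 and 50, the medians were -0.54 in HFD PCN against HFD Vehicle (6 of 6 negative) and 0.88 in HFD Vehicle against HFD (6 of 6 positive). Genes of this list can also pass the filter through the group where they are high. They share sequence with the 4 alpha-defensin members, so they are not separate evidence.

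The wider list of 41 secretory genes, which includes those defensin genes, had 1 call. Reg3b, which encodes an antimicrobial lectin made by enterocytes as well as Paneth cells, fell in HFD against Chow, with a log2 fold change of -3.27 and SE 0.37 (edgeR adjusted p 0.0257). Reg3g, its close relative, had a log2 fold change of -2.51 there (SE 0.46, adjusted p 0.195). Of the 16 genes of the list tested in that comparison, 15 had negative values. The negative values were 14 of 18 in HFD PCN against HFD Vehicle, while in HFD Vehicle against HFD 15 of 17 were positive and in HFD PCN against HFD 10 of 17 were positive, with none called. With HFD Vehicle 55 as the single vehicle library, 16 of 17 were negative in HFD PCN against HFD Vehicle and 14 of 17 positive in HFD Vehicle against HFD. Reg3g then had a log2 fold change of -2.49 in HFD PCN against that library, in a fit given for its values alone.

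A list of 25 genes of Paneth and secretory cell differentiation and function, all of them measured, had no call in any of the 4 comparisons. It holds transcription factors, Wnt and Notch pathway genes and, in Nod2, Atg16l1, Irgm1, Rab7 and Lrrk2, genes of microbe sensing, autophagy and granule traffic. Of the 25, 18 were negative and 7 positive in HFD PCN against HFD Vehicle, with a median log2 fold change of -0.58. Those with the lowest p were Bhlha15 (-1.11, SE 0.34), a factor of secretory cell maturation, Gfi1 (-1.12, SE 0.34), a transcriptional repressor needed for Paneth cell fate, and Ephb3 (-1.46, SE 0.48), a receptor that positions Paneth cells at the crypt base. Ephb3 had 3.49, 3.17 and 6.34 CPM in HFD PCN 5, 11 and 27, against 19.4, 10.2 and 4.67 CPM in HFD Vehicle 23, 50 and 55, so it too was high in the 2 libraries with heat shock transcripts. In HFD Vehicle against HFD 16 were positive and 9 negative, led by Sox9 (1.56, SE 0.49), the Wnt-dependent factor required for Paneth cells. Sox9 had 47.8, 21.5 and 14.0 CPM in HFD Vehicle and 12.7, 5.29 and 11.3 CPM in HFD. They split into 9 positive and 16 negative in HFD PCN against HFD, and in HFD against Chow 14 were positive and 11 negative, with a median of 0.08. With HFD Vehicle 55 alone, 16 were negative in HFD PCN against HFD Vehicle (median -0.10) and 11 positive in HFD Vehicle against HFD (median -0.14).

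The genes whose levels followed the 9 most closely over the 12 libraries were named by Pearson's r with the mean standardised log2 level of the 9, among 13682 other genes with a mean count of at least 20. They were Defa29 (r 0.971), Defa30 (0.965), Habp2 (0.963), AY761184 (0.962) and Zfp521 (0.952). All 5 rest on the same 12 libraries, and HFD Vehicle 23 was the highest for each, so these values describe likeness and carry no p. Over the 10 libraries without HFD Vehicle 23 and 50, r was 0.922 for Defa29, 0.923 for Defa30, 0.930 for Habp2, 0.916 for AY761184 and 0.871 for Zfp521. Defa29, Defa30 and AY761184 belong to the alpha-defensin group. Habp2, which encodes a plasma serine protease, ran from 0.704 CPM in HFD PCN 11 to 9.66 CPM in HFD Vehicle 23, and Zfp521, which encodes a zinc finger protein, from 1.69 CPM to 6.98 CPM in the same 2 libraries.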

How the data were processed

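Per the submitters' processing notes, the tools named are HISAT2, HTSeq and DESeq2 and the genome is GRCm38 (mm10); the sources used here do not give versions, the strand setting or the treatment of reads with several matches. The authors deposited raw counts per gene, with their own log2 fold changes and adjusted p-values, as 1 table for HFD and Chow and 1 for HFD PCN and HFD Vehicle. From the counts, edgeR 4.0.16 (TMM, filterByExpr, robust quasi-likelihood F-test, Benjamini-Hochberg over all genes tested, threshold 0.05) was fitted on the 6 libraries of each comparison; comparisons across the 2 tables used the 26121 genes in both. Standard errors are the log2 fold change over the square root of F and are approximate. Alternatives used DESeq2 1.42.0 and limma 3.58.1, in R 4.3.3. The 9 genes and the lists were chosen with earlier results of these data known. Named genes are the 9, and from each other list the genes called, up to 3 with the smallest p and those a result turns on. Counting intervals and floors of 3 reads cover counting error only. Between libraries of a group, chi-square per degree of freedom over genes was 27.4 to 188, so none was a copy. Transcripts are from GENCODE M21, and alignments used Biopython 1.88. The fits were tested on simulated data.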

Additional observations from a re-analysis of the deposited data

How the results depend on the processing

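No paired analysis was possible because the groups share no replicate numbers. The counts of genes that passed depended on the method and on single libraries. In HFD against Chow 10 genes passed, against 351 with no filter on low counts, 137 with DESeq2, 6 with limma-voom, 2 with all 12 libraries in 1 fit and 4 to 63 without 1 library (63 without HFD 38, 4 without Chow 8, 5 without HFD 30, 6 without Chow 19). In HFD PCN against HFD Vehicle 10 passed, against 843 with no filter, 322 with DESeq2, 34 with all 12 libraries, 4 without ribosomal RNA and similar genes, 2 without HFD Vehicle 23 and 50, and 0 to 3697 without 1 library (3697 without HFD Vehicle 55, 5 without HFD Vehicle 23, 0 without HFD Vehicle 50 or HFD PCN 11). In HFD Vehicle against HFD 0 passed, against 1 with no filter, 29 with DESeq2, 1 with all 12 libraries, 6 without HFD Vehicle 23 and 50, and 0 to 260 without 1 library (260 without HFD Vehicle 55). In HFD PCN against HFD 52 passed, against 746 with no filter, 459 with DESeq2, 31 with limma-voom, 29 with all 12 libraries and 1 to 452 without 1 library (1, 14 and 452 without HFD 4, 30 and 38, and 29, 24 and 223 without HFD PCN 5, 11 and 27). Members sharing the main direction in HFD PCN against HFD were 2 to 5 without 1 library (2 without HFD 4, 3 without HFD PCN 11). Values that changed sign were small, and the cause was not tested. In HFD against Chow they were Lyz1 without HFD 30 (0.19), Chow 17 (0.014) or Chow 19 (0.049), over a leave-one-out range of -0.55 to 0.19, and Ang4 without HFD 30 (0.064), range -1.27 to 0.064. In HFD PCN against HFD Vehicle it was Defa21 without HFD Vehicle 23 and 50 (0.073). In HFD PCN against HFD they were Defa24 with limma-voom (0.045) and without HFD 4 (0.24), PCN 11 (0.15), PCN 27 (0.050) or HFD 38 (0.12), range -0.39 to 0.24, Lyz1 without HFD 4 (0.24) or PCN 11 (0.033), range -0.56 to 0.24, and Itln1 without HFD 4 (0.0018), range -0.63 to 0.0018. Depth limits Mptx2, Defa17, Defa21 and Defa23, which had 128 or fewer reads in each group. Counts, lists and likeness without HFD Vehicle 23 and 50 were added after seeing the data.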
